A study of Mus musculus with 36 samples.

Results

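TBP sites found in only 1 of 2 mouse embryonic stem (ES) cell lines numbered 233 of the 5764 nuclear TBP summits of the ethanol (EtOH) lists. They were 42 of 2664 summits (1.58%) in the RT7 line and 191 of 3100 (6.16%) in the RT10 line. A site belonged to RT7 only when an EtOH summit of RT7 had a 4-hydroxytamoxifen (4-OHT) summit of RT7 within 250 bp and no summit of either RT10 list within 1000 bp. RT10-only sites were chosen in the same way with the lines exchanged. The sites were thus chosen by presence or absence of a called summit in the 4 lists, and the counts and scores that follow from it are descriptions.

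TBP was mapped by CUT&RUN, in which a tethered nuclease releases the DNA around an antibody-bound protein. RT7 cells treated with 4-OHT, RT7 cells given EtOH, RT10 cells treated with 4-OHT and RT10 cells given EtOH made the 4 groups, with treatment from day 1 to day 3 of culture. The genotype of RT7 is R26CreERT2/+;Taf7flox/flox and that of RT10 is R26CreERT2/+;Taf10flox/flox, so both lines and both treatments share a Cre recombinase at the Rosa26 locus that 4-OHT activates. Each group had 2 TBP libraries and 1 IgG library but 1 summit list, out of 36 libraries in 20 groups. The read depth behind the lists is unknown, no difference between lines has a replicate check, and the line itself cannot be told apart from the floxed gene it carries. The IgG libraries titled RT7 EtOH and RT10 4-OHT carry the other treatment in their treatment field, and they were taken by title. Libraries of TAF7, TAF10 and TAF12 were not analysed here, and loss of the deleted subunit was not checked. The ES cell label could not be checked, since no expression was measured. Of 28 pluripotency genes, 13 had a summit within 500 bp of an end in at least 1 list, as had 1 of 16 lineage genes, 1 of 11 fibroblast genes and 1714 of all 21887 protein-coding genes (7.83%). Lists with no tie to ES cells held shares as high, with 14 of 19 heat shock and 11 of 15 cytoskeleton genes.

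TBP is the subunit of the general transcription factor TFIID that binds and bends promoter DNA at the TATA box, and it also serves RNA polymerase III as part of TFIIIB. TAF7 and TAF10 are TBP-associated factors, and TAF10 is shared with the SAGA coactivator. In ES cells TBP is found mainly at active promoters, and weaker signal at enhancers is known.

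Promoters that held a one-line-only EtOH summit within the RefSeq promoter sequence, from 250 bases before to 50 bases after a start, are shown for the genes that the results below return to. They numbered 5 in RT7, all of protein-coding genes, and 26 in RT10, of which 20 were of protein-coding genes. The sequences are from RefSeq on GRCm38.p6, the assembly also named mm10, 5′ to 3′ on the strand of the gene. The 21 capitals are centred on the EtOH summit of the line that held the site. A summit gives the position of highest signal of a peak and not a contact base. Eif4e encodes the cap-binding translation factor eIF4E (chr3:138527018-138527317, plus strand, RT7), and Rps3 a protein of the small ribosomal subunit (chr7:99483660-99483959, minus strand, RT7). H3c2 encodes a replication-dependent histone H3 (chr13:23752095-23752394, plus strand, RT10) and Colgalt1 a galactosyltransferase that modifies collagen (chr8:71610774-71611073, plus strand, RT10). Esrra (chr19:6921759-6922058, minus strand, RT10) and Nr5a2 (chr1:136953581-136953880, minus strand, RT10) encode orphan nuclear receptors.
Eif4e: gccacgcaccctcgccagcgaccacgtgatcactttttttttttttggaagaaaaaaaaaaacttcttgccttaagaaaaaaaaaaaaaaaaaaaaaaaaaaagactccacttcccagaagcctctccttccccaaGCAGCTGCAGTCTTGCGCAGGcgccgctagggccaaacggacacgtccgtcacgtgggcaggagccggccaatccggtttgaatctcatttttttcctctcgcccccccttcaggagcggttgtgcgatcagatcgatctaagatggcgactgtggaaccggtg
Rps3: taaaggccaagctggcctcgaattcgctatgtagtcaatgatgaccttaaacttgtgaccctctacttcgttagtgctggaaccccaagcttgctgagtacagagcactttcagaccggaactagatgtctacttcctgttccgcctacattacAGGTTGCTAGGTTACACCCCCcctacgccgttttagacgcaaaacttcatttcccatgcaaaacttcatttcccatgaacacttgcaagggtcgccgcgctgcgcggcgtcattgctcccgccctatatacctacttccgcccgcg
H3c2: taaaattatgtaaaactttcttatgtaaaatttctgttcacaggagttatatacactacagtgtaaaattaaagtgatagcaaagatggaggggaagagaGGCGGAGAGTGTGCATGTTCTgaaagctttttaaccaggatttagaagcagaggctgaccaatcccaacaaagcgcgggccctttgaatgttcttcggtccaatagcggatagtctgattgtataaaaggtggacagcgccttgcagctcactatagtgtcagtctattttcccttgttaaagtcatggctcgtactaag
Colgalt1: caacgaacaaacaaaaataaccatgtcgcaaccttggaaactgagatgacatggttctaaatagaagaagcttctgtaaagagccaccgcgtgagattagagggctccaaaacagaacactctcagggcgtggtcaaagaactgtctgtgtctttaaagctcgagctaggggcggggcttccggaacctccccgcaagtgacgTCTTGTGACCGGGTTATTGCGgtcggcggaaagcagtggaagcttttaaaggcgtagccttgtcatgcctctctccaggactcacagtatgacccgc
Esrra: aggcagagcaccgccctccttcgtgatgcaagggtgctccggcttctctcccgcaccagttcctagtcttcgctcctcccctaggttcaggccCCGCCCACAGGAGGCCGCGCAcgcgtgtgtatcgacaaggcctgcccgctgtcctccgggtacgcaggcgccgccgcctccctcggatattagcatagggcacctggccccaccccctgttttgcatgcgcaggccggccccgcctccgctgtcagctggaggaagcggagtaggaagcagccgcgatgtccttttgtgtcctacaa
Nr5a2: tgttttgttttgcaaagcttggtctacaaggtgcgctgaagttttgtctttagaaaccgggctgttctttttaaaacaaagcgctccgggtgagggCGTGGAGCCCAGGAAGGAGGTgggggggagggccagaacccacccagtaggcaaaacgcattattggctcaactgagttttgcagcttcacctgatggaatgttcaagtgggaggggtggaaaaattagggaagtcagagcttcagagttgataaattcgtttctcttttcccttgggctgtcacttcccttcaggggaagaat
The summit lay at −104 from the start in Eif4e, −86 in Rps3, −140 in H3c2, −37 in Colgalt1, −147 in Esrra and −144 in Nr5a2. Of these 6 promoters, H3c2 alone held TATAAA, the TATA box letters, beginning at −29. CCAAT, read on either strand, began at −92 and −51 in H3c2, at −46 in Eif4e and at −92 in Nr5a2. GGGCGG, the GC box, also read on either strand, began at 23 and 42 in Rps3, at −81 in Colgalt1 and at −240 and −157 in Esrra. In Rps3 and Esrra it reads CCGCCC on the strand shown.

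Most one-line-only sites lay over 5000 bp from any summit of the other line, where the rule itself required over 1000 bp. No distance expected from the list lengths was set beside this. Of the sites that a line kept in both treatments (38.7% of the RT7 and 48.1% of the RT10 EtOH summits), RT7-only sites were 4.07% (exact 95% interval 2.95 to 5.46, 42 of 1032) and RT10-only sites 12.8% (11.2 to 14.6, 191 of 1491). These intervals, like those below, cover counting error only. The lists differed in length, at 1377 (RT7 4-OHT), 2664 (RT7 EtOH), 2186 (RT10 4-OHT) and 3100 (RT10 EtOH) nuclear summits. With all 4 shortened by score to 1377 summits, the numbers were 65 RT7-only and 90 RT10-only sites. RT10-only sites stayed more numerous, but the ratio between the lines depended on list length. A site shared by all 4 lists within 250 bp, the set used for comparison below, occurred 744 times per line, 72.1% of the kept RT7 and 49.9% of the kept RT10 sites.

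The median distance to the nearest summit of the other line was 63863.5 bp for RT7-only and 58900 bp for RT10-only sites. It exceeded 5000 bp for 33 of 42 RT7-only sites (78.6%) and 158 of 191 RT10-only sites (82.7%), and 100000 bp for 18 (42.9%) and 85 (44.5%) of them. Few sites were near the limit of 1000 bp, with 5 RT7-only and 17 RT10-only sites no more than 2000 bp away. The RT7-only sites just inside the limit lay near Bax (1012 bp to the other line), the serine tRNA gene n-TScga1 (1198 bp) and n-TRtct3 (1294 bp), and those just outside near Platr29 (923 bp), n-TAcgc10 (858 bp) and n-TVcac4 (801 bp). For RT10 they lay at H3c2 (1025 bp), near Zbtb44 (1039 bp) and near Ube2q1 (1048 bp) inside it, and at Kmt2e (888 bp), near A230028O05Rik (800 bp) and near Gm38926 (759 bp) outside it. The 4-OHT summit of the same line lay a median of 66 bp from the EtOH summit at RT7-only and 59 bp at RT10-only sites, against 53 and 56.5 bp at sites in all 4 lists.

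**Figure D1:**
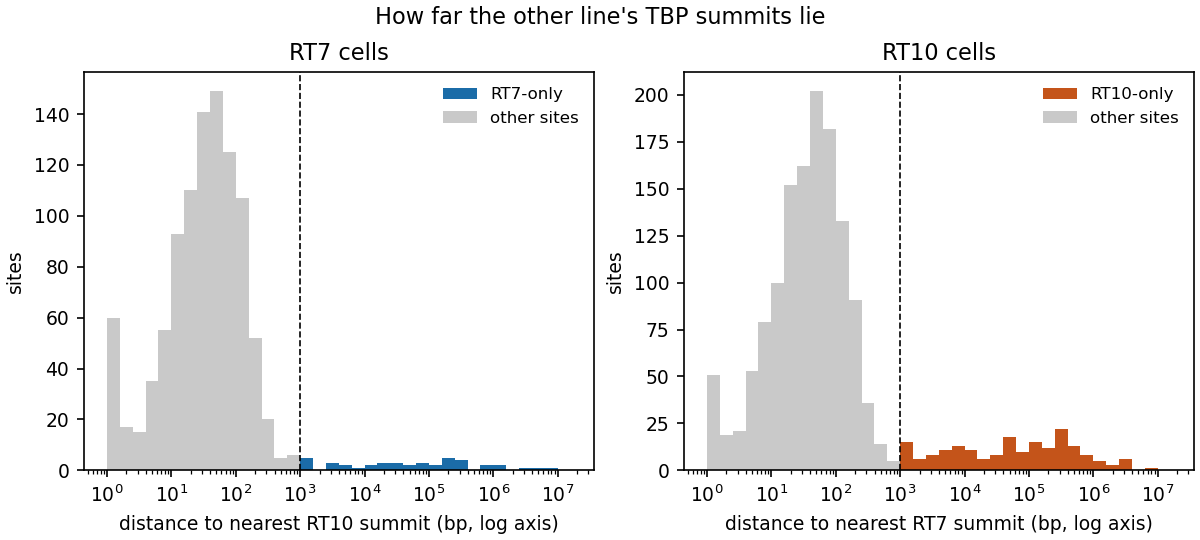
Distance from each TBP site kept in both treatments of a line to the nearest summit of the other line, in bp on a log axis, with the number of sites per bin on the vertical axis. Coloured bars are the 42 RT7-only and 191 RT10-only sites, grey bars the other kept sites, and the dashed line marks 1000 bp. A distance of 0 bp is drawn at 1 bp. The one-line-only sites spread from the limit to 8620030 bp.

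One-line-only sites scored below sites in all 4 lists, and within the EtOH lists they stood near the middle. The score is the deposited −log10 q-value of the peak at its summit, and it is compared here within a list. In the RT7 4-OHT list the median score of RT7-only sites was 3.10, against 7.18 for sites in all 4 lists, and in the RT7 EtOH list 5.57, against 14.4. In the RT10 4-OHT list the median of RT10-only sites was 3.68, against 11.3, and in the RT10 EtOH list 5.70, against 16.3. Of kept RT7 sites with an EtOH score under 4, 14.8% were RT7-only, against 1.12% of those at 20 or more. For RT10 these shares were 33.5% and 0.610%. The median RT7-only site stood at percentile 17.1 of the 4-OHT list and 44.8 of the EtOH list, and the median RT10-only site at 25.5 and 46.2. The scores come from the same peak calls as the rule, so these values describe the chosen sites.

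**Figure D2:**
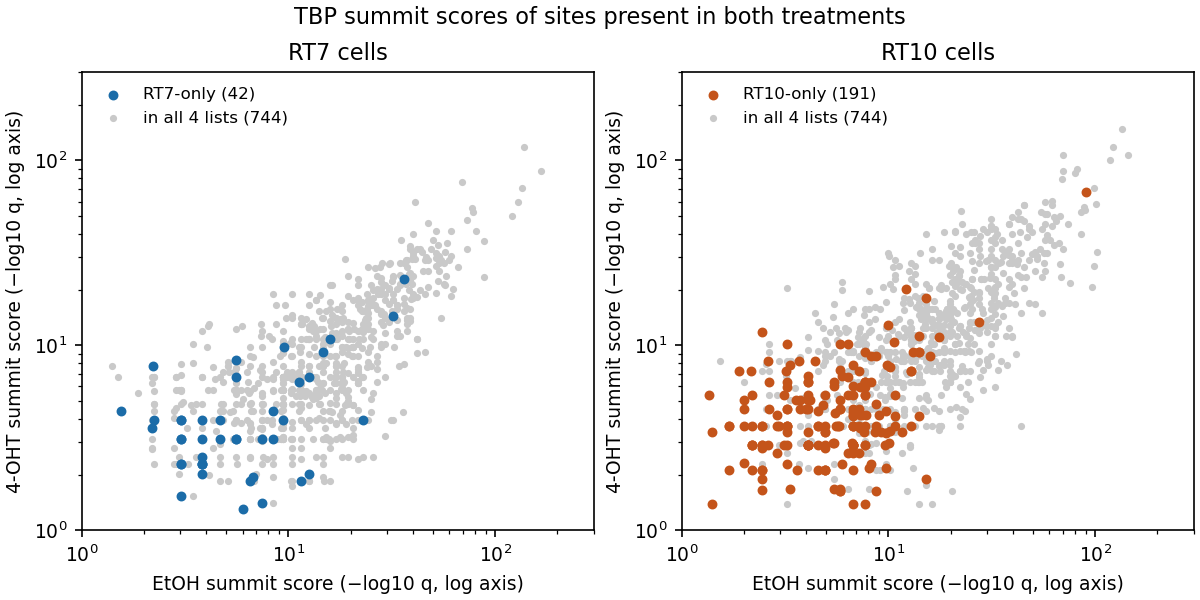
Score of each site in the 4-OHT list (vertical) against its score in the EtOH list (horizontal) of the same line, both −log10 q on log axes, for RT7 (left) and RT10 (right). Coloured points are one-line-only sites and grey points sites in all 4 lists. Most coloured points lie at the lower left, and the RT10-only site near Ier2, at 67.6 (4-OHT) and 90.3 (EtOH), stands apart from them at the upper right.

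The highest RT10-only site lay on chromosome 8 at position 84653232, 8099 bp from Ier2, an immediate early gene. Its RT10 scores were 67.6 with 4-OHT and 90.3 with EtOH, where it ranked 10 in the list, and both summits fell on the same base. The nearest RT7 summits were 2858 bp away with 4-OHT (score 3.95) and 2863 bp away with EtOH (9.42), where RT10 also had summits (3.98 with 4-OHT and 10.8 with EtOH). The neighbouring site was therefore listed in both lines, and the strong one in RT10 only. The next EtOH score among RT10-only sites was 27.4.

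That site, at H3c2, scored 13.4 with 4-OHT and 27.4 with EtOH. All 4 lists had a summit 1025 to 1090 bp away on the same side, with scores of 33.2 (RT7 4-OHT), 41.7 (RT7 EtOH), 29.1 (RT10 4-OHT) and 32.6 (RT10 EtOH). In RT10 the H3c2 promoter thus had a summit of its own beside a site of all 4 lists, within a histone gene cluster. The next intergenic site lay 10044 bp from Ren1, the renin gene (11.2 with 4-OHT and 17.5 with EtOH, the order of every pair of scores below). Other intergenic sites lay nearest to Dsp, which encodes desmoplakin (4.16 and 14.04, 42080 bp), Oas1a, an oligoadenylate synthetase gene of the interferon response (9.23 and 14.04, 1395 bp), and Gm35194 (11.2 and 14.04, 5163 bp). The nearest gene is given as a position only, since no measurement here ties an intergenic site to a gene.

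In RT7 the highest site lay 1171 bp from Gm42048 on chromosome 8 (position 121832820), with scores of 22.8 (4-OHT) and 36.1 (EtOH). The nearest RT10 summit was 75021 bp away. A second RT7-only site inside Gm42048, 8457 bp on, scored 3.10 (4-OHT) and 8.42 (EtOH). Another pair of RT7-only sites on chromosome 8 lay at Mtmr7, which encodes a phosphoinositide phosphatase. One was inside the gene, at position 40610226 (9.75 with 4-OHT and 9.54 with EtOH), and the other 12692 bp outside it, at position 40647627 (14.5 and 31.9). Near that outer site, both RT10 lists had low-scoring summits 2562 and 2788 bp away (3.05 with 4-OHT and 3.86 with EtOH), at a place where RT7 scored 18.8 and 14.2. The other intergenic sites of RT7 with the highest scores lay 10556 bp from A730036I17Rik (10.8 and 15.9) and 29183 bp from the adhesion receptor gene Adgrd1 (9.15 and 14.8). Tied with each other at an EtOH score of 12.6, further sites lay 3288 bp from Emp2 (2.01 with 4-OHT) and 11299 bp from Eif2s2 (6.71). Eif2s2 is a subunit gene of the translation initiation factor eIF2.

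The next comparison asked where one-line-only sites lay relative to genes, which the rule did not use. They lay less at gene ends and more inside genes or between them than sites in all 4 lists. Within 500 bp of a gene end were 62 of 233 one-line-only sites, 26.6% (21.1 to 32.8), against 897 of 1488 sites in all 4 lists, 60.3% (57.7 to 62.8). The 1488 count each shared place once per line, so their joint interval is too narrow, and the values per line are free of this. The whole EtOH lists stood between, at 48.4% for RT7 and 46.5% for RT10. Each line gave similar shares, with 28.6% of RT7-only sites (15.7 to 44.6) against 60.5%, and 26.2% of RT10-only sites (20.1 to 33.0) against 60.1%. The intervals of one-line-only sites and sites in all 4 lists did not overlap in either line. No test was run, since each group has 1 list. The gene table has no strand, so an end may be a start or a terminus. By the starts of the promoter table, which leaves out 5 sites on chromosome 18, the shares within 500 bp were 24.6% (56 of 228) against 44.6% (650 of 1458).

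By class, ends of protein-coding genes held 17.2% of one-line-only sites, against 38.8% of sites in all 4 lists. Ends of RNA polymerase III genes, such as tRNA genes, held 2.15% against 11.3%, and ends of other genes 7.30% against 10.1%. Sites inside genes away from their ends made 34.3% against 21.3%, and intergenic sites 39.1% against 18.4%. These shares pool the lines, and the intervals were read per line. In RT10 they did not overlap for ends of protein-coding genes (11.8 to 22.8 against 35.5 to 42.6), ends of RNA polymerase III genes (0.573 to 5.28 against 9.23 to 13.9), sites inside genes (28.8 to 42.8 against 18.7 to 24.8) and intergenic sites (31.3 to 45.5 against 15.6 to 21.2). Those of other gene ends did (4.07 to 11.99 against 7.65 to 12.03). In RT7 they did not overlap for ends of protein-coding genes (8.60 to 34.1 against 35.2 to 42.3) and intergenic sites (27.7 to 59.0 against 15.8 to 21.5), and for the remaining 3 classes they did. In the whole EtOH lists of RT7 and RT10, ends of protein-coding genes held 34.8% and 33.4% of summits. Ends of RNA polymerase III genes held 5.93% and 5.13%, and ends of other genes 7.66% and 7.90%. Summits inside genes made 27.0% and 27.9%, and intergenic summits 24.6% and 25.6%. RT7-only sites inside genes (28.6%) and one-line-only sites at ends of other genes were thus near the list shares. Of the one-line-only sites inside genes, 11 of 12 in RT7 and 50 of 68 in RT10 were in protein-coding genes. Intergenic sites lay a median of 10927.5 bp (RT7-only) and 8370 bp (RT10-only) from a gene, against 7236 and 7026.5 bp for those in all 4 lists.

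**Figure D3:**
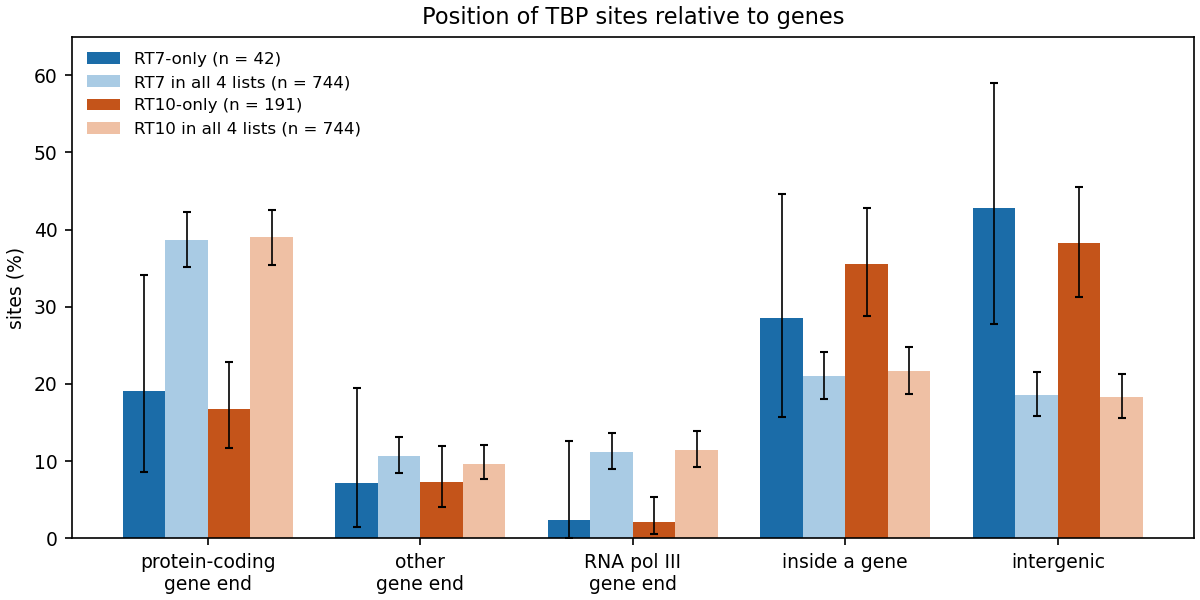
Percent of TBP sites in each gene class for RT7-only sites, RT7 sites in all 4 lists, RT10-only sites and RT10 sites in all 4 lists, with exact 95% intervals as bars. Protein-coding gene ends held 19.05% of RT7-only and 16.8% of RT10-only sites, against 38.7% and 39.0% in all 4 lists. Intergenic sites made 42.9% and 38.2%, against 18.5% and 18.3%.

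Scores differed between the same sets, and among sites in all 4 lists the gene end share was higher at higher EtOH scores. The shares were therefore set side by side within ranges of the EtOH score. For RT10 the gene end share was 39.7% of RT10-only sites against 45.7% of sites in all 4 lists at scores under 4, with overlapping intervals. It was 24.5% against 58.6% from 4 to 6, 16.4% against 48.7% from 6 to 10 and 19.05% against 59.3% from 10 to 20, with intervals that did not overlap. In RT7 the numbers per range were 3 to 18 sites. The intervals did not overlap from 10 to 20 (0 of 6 sites against 58.4%), and in the other ranges they did. In RT10 the difference was thus present within ranges of the EtOH score from 4 to 20. It was not detectable at scores under 4 or, with 2 RT10-only sites, at 20 or more. The 4-OHT scores were not matched, and over all RT10 sites of these sets their medians were 3.68 against 11.3. Whether score accounts for the difference was not tested.

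**Figure D4:**
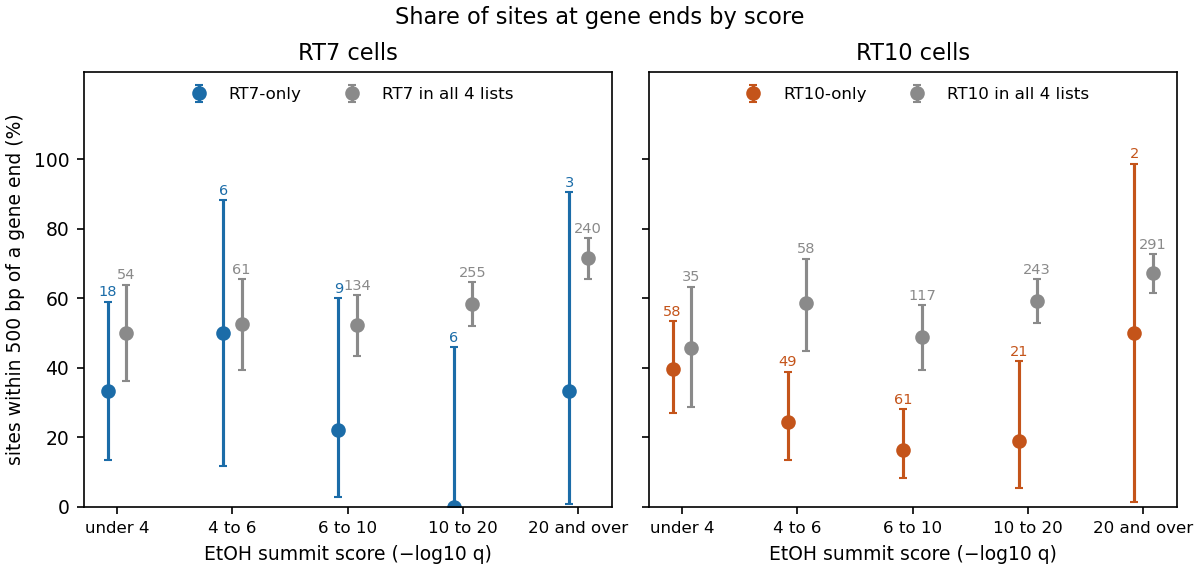
Percent of TBP sites within 500 bp of a gene end by EtOH score (−log10 q) for RT7 (left) and RT10 (right), with exact 95% intervals and the number of sites above each. Coloured points are one-line-only sites and grey points sites in all 4 lists. In RT10 the coloured points from 4 to 20 lie between 16.4% and 24.5%, below grey points of 48.7% to 59.3%.

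At ends of protein-coding genes, RT7-only sites numbered 8 and had low scores. The highest EtOH score was at 2610044O15Rik8 (1.84 with 4-OHT and 6.49 with EtOH), followed by Rps3 (8.35 and 5.57) and Hsph1, which encodes a large heat shock chaperone (3.10 and 4.68). A further 4 sites shared an EtOH score of 3.01. They lay at Ctsb, the cathepsin B gene (3.10 with 4-OHT), Ndufs8, a subunit of respiratory complex I (3.95), Sac3d1 (3.95) and Rccd1 (3.10). The remaining site lay at ends of Zbtb22 and of Daxx, a chaperone gene for a histone H3 variant (4.44 and 1.55). Rps3 lay 300891 bp and Ctsb 285021 bp from the nearest RT10 summit, while for Hsph1 it was 5072 bp. Eif4e, whose promoter is shown above, counted as inside a gene, since its own end in the gene table lay 973 bp away and no other gene end was within 500 bp. It scored 4.44 with 4-OHT and 8.42 with EtOH, with no RT10 summit within 383565 bp. At ends of other genes the RT7-only sites were Gm39319 (1.41 and 7.45), Mir320 beside Polr3d, a subunit gene of RNA polymerase III (3.10 and 5.57), and Gm1976 (2.30 and 3.83). The only tRNA gene was n-TScga1 (3.95 and 23.1), in a chromosome 13 cluster where all 4 lists had further summits within 10000 bp.

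RT10-only sites at ends of protein-coding genes numbered 32. After H3c2 the highest EtOH scores were at Esrra, beside Catsperz (3.68 with 4-OHT and 12.9 with EtOH), Galt, an enzyme of galactose use (3.40 and 11.6), and Bpgm, the bisphosphoglycerate mutase gene (5.41 and 10.8). Mblac1 beside Cnpy4 (2.29 and 8.23), Triml2 beside Triml1 (6.33 and 8.23), Tspan14, a tetraspanin gene (5.95 and 7.73), and Esco2, a cohesin acetyltransferase gene (5.41 and 7.73), came next. Cdc42ep4, an effector of the GTPase Cdc42 (4.21 and 7.48), Lsm14b, an RNA-binding protein gene (10.2 and 5.84), Vac14, a scaffold of phosphoinositide synthesis (4.29 and 5.54), and Pcf11, a transcription termination factor (1.67 and 5.45), followed. Of these 12 sites, H3c2 was the only one at a gene of the fixed lists. Apart from H3c2, their nearest RT7 summits lay 22234 bp (Mblac1) to 479959 bp (Galt) away.

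Ends of RNA polymerase III genes held 4 RT10-only sites. The highest was at the methionine tRNA gene n-TMcat17, beside Fbxo31 (20.2 with 4-OHT and 12.1 with EtOH), and the others at n-TIaat15 (3.68 and 6.77), n-THgtg1 (2.88 and 4.06) and n-TFgaa6 (6.33 and 3.23). Ends of other genes held 14, with the highest EtOH scores at the non-coding genes Gm13580 (2.88 and 9.63) and Gm25939 (3.40 and 9.22). Inside genes the highest were in Gm33588 (8.75 and 15.9), Gm33182 (1.89 and 15.2), Sgk1, a serum- and glucocorticoid-induced kinase gene (9.23 and 14.04), Colgalt1 (9.23 and 13.2) and, with the same EtOH score of 10.8, Gm40262 (3.67 with 4-OHT) and Tsks (4.16). Colgalt1 and Nr5a2 (2.88 and 4.06) counted as inside a gene by the gene table, although their sites lay in the promoters shown above. In all, 7 of 68 RT10-only and 3 of 12 RT7-only sites inside genes were within 1000 bp of a start of the promoter table.

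Some sites of the same line lay close together. RT10-only sites within 100000 bp of each other formed 12 groups with 25 of the 191 sites, and RT7-only sites 2 groups with 4 of 42 sites. Kept sites as a whole were not grouped in this way, so the groups are only described. The densest, 3 RT10-only sites within 1962 bp, lay 2221 to 4183 bp from B3gnt7 on chromosome 1, each with a score of 3.40 with 4-OHT and with scores of 3.23 to 4.93 with EtOH. These 3 EtOH summits had 2 4-OHT summits between them, since the sites at 86311042 and 86311488 had the same nearest one, at 86311251. Sgk1 held 2 RT10-only sites, 7597 bp apart (9.23 and 14.04, 4.42 and 9.74), and Myo10, an unconventional myosin gene, 2 sites 11866 bp apart (4.84 and 8.72, 3.68 and 6.77). On chromosome 13 the tRNA and histone region from 23270641 to 23759589 held 5 RT10-only sites among 69 (RT7 4-OHT), 62 (RT7 EtOH), 67 (RT10 4-OHT) and 69 (RT10 EtOH) summits. Both lines occupied this region. Of the whole RT10 EtOH list 6.16% were RT10-only, so 5 among 69 EtOH summits is not read as a trait of the region.

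Some one-line-only sites lay in genes that the other line also occupied elsewhere. Among sites in or at a gene, this held for 2 of 24 RT7-only (8.33%, 1.03 to 27.0) and 23 of 118 RT10-only sites (19.5%, 12.8 to 27.8). The same share over all kept sites was not counted, so these shares cannot be called high or low. Sgk1 had RT7 EtOH summits, with EtOH scores of 1.51 for one and 4.68 for another, but no RT7 4-OHT summit. Myo10 and Slc2a3, a glucose transporter gene, had RT7 summits of both treatments within 10000 bp of the RT10-only sites. In Mical3 and Tsks the nearest RT7 summits lay 20657 and 23119 bp away. No gene held both an RT7-only and an RT10-only site, but an intergenic pair lay 1701 bp apart on chromosome 7. Its RT7-only site (position 38029153, 3.95 and 3.83) lay 4003 bp and its RT10-only site (38030854, 2.11 and 3.61) 2302 bp from Gm30684. No other pair of sites from different lines lay within 10000 bp. Near a site of all 4 lists, within 5000 bp, were 5 of 42 RT7-only and 15 of 191 RT10-only sites, again without a share over all kept sites.

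Genes of the fixed lists were counted at one-line-only sites beside all protein-coding genes. Of 502 list genes, 3 (0.598%) had a one-line-only site within 500 bp of an end, against 49 of 21887 protein-coding genes (0.224%). A summit of any list was at an end of 194 list genes (38.6%), against 1714 protein-coding genes (7.83%). Among genes with such a summit the counts were 3 of 194 and 49 of 1714, so the list genes are not read as enriched. A site of all 4 lists was at an end of 80 list genes (15.9%), against 398 protein-coding genes (1.82%). Of 20 lists, 3 had a gene with a one-line-only site within 500 bp of an end, and each had 1 gene. These were Hsph1 among 19 heat shock genes and Rps3 among 83 ribosomal protein genes, both in RT7, and H3c2 among 63 replication-dependent histone genes, in RT10. By comparison, 6 heat shock, 13 ribosomal protein and 27 histone genes had a site of all 4 lists at an end. None of the 28 pluripotency genes, 16 lineage genes, 11 fibroblast genes or 8 genes of two-cell-like cells had a one-line-only site at an end. The nearest or holding gene was also read without a distance limit. No share over all sites was counted for it, so such counts cannot be called high or low. Read so, pluripotency genes were the nearest gene or held the site at 3 RT10-only sites. These were Nr5a2 at its promoter, Tbx3, a T-box factor gene that held the site away from its ends (7.27 with 4-OHT and 7.18 with EtOH), and Zfp42, which encodes the ES cell marker REX1, 13804 bp away (10.2 and 6.40). Tbx3 also held an RT7 EtOH summit 9249 bp from its RT10-only site (11.5), and no RT7 4-OHT summit. Hspa8, a constitutive heat shock chaperone gene, was nearest to an RT10-only site 6853 bp away (2.95 and 5.36), the imprinted gene Plagl1 held one (3.40 and 7.62), and the p53 target Bax was nearest to an RT7-only site 657 bp away (3.95 and 4.68).

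No summit of any list lay near the deleted genes, so no one-line-only site could. No list had a summit within 730015 bp of Taf7 or 1523887 bp of Taf10, and the nearest one-line-only site was 2861261 bp from Taf7 and 6259099 bp from Taf10, both RT7-only. Gt(ROSA)26Sor, the Rosa26 locus with the Cre gene, held an EtOH summit in RT7 (9.70) and RT10 (14.04). Its nearest 4-OHT summits were 29114 bp (RT7) and 229323 bp (RT10) away, so it was in the EtOH lists of both lines and in no one-line-only set.

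The sites were spread over the autosomes, and none was on X, where 6 RT7 and 11 RT10 sites were kept in both treatments. The exact intervals of a share of 0 reached 8.41% (RT7) and 1.91% (RT10). RT10-only sites were most numerous on chromosome 1, with 20 of 191 sites, 10.5% (6.51 to 15.7), against 5.70% of all kept RT10 sites. Chromosome 8 followed with 18 sites (9.42%, 5.68 to 14.5) against 7.91%. On chromosome 11 there were 6 (3.14%, 1.16 to 6.71) against 8.18%, and on chromosome 7 there were 8 (4.19%, 1.83 to 8.09) against 8.38%. The interval left out the share of kept sites on chromosomes 1, 7 and 11, of 20 chromosomes looked at. RT7-only sites were most numerous on chromosome 8, with 6 of 42 (14.3%, 5.43 to 28.5) against 7.07%, and 4 of the 6 belonged to the Gm42048 and Mtmr7 pairs. On chromosomes 1, 4, 6 and 15 RT7 had none, and 0 of 42 allows a share of up to 7.14% by the limit of 3 counts and 8.41% by the exact interval drawn in the plot by chromosome.

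**Figure D5:**
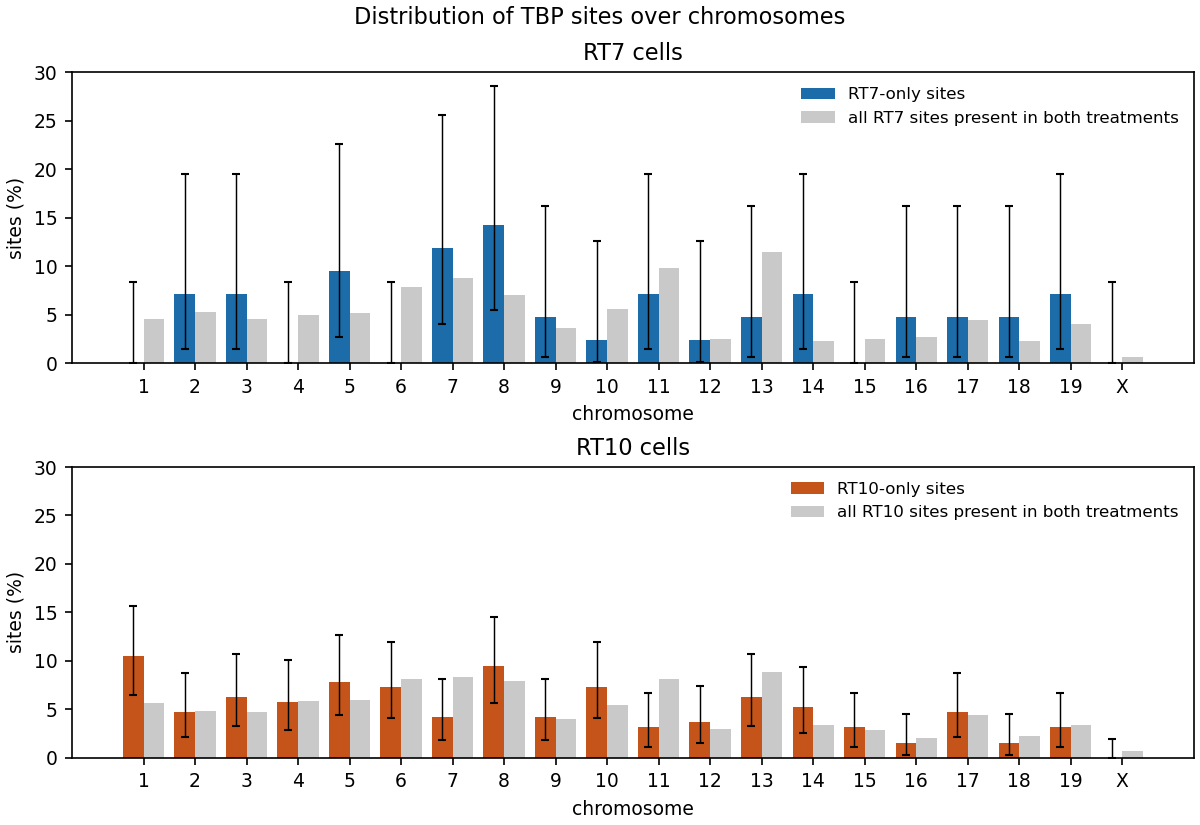
Percent of sites on each chromosome for RT7 (top) and RT10 (bottom), with coloured bars for one-line-only sites with exact 95% intervals and grey bars for all sites kept in both treatments of the line. Chromosome 1 held 10.5% of RT10-only sites against 5.70% of kept RT10 sites, and chromosome 8 held 14.3% of RT7-only sites against 7.07%.

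Promoters at one-line-only sites were compared with those at sites of all 4 lists by short letter matches on either strand in the 300 bases of the promoter table. The one-line-only set had 56 promoters with a start within 500 bp of a summit, 11 for RT7 and 45 for RT10, and the set of all 4 lists had 364. TATAAA occurred in 14.3% (6.38 to 26.2) against 18.4%, with 13.6% of all 32851 promoters of the table. CCAAT occurred in 53.6% against 55.8% (37.4% of all), and CCGGAAG, the ETS motif, in 17.9% against 13.7% (8.86% of all). For these motifs the intervals overlapped. GGGCGG occurred in 51.8% (38.0 to 65.3) against 70.6% (65.6 to 75.2; 35.7% of all), and AAGATGGCG, the YY1 motif, in 12.5% (5.18 to 24.1, 7 promoters) against 3.30% (1.71 to 5.69; 1.40% of all). CACGTG, an E box, occurred in 26.8% (15.8 to 40.3) against 20.9% (7.15% of all). The intervals of GGGCGG did not overlap, by a narrow margin, and those of AAGATGGCG and CACGTG did. With starts within 250 bp those of GGGCGG also overlapped, at 54.8% (38.7 to 70.2) against 69.2% (63.8 to 74.3). By line within 500 bp, the GGGCGG interval of RT10-only promoters (42.2 to 72.3) overlapped that of all 4 lists. That of the 11 RT7-only promoters (6.02 to 61.0) did not. The remaining 5 motifs were in at most 3 of the 56 promoters. They were the CRE motif TGACGTCA (1 promoter, 1.79% of all), the AP-1 motif TGACTCA (3 promoters, 5.20% of all) and the NRF1 motif GCGCATGCG (3 promoters, 1.75% of all). The ZNF143 motif ACTACAATT (0.393% of all) and the B box of tRNA genes, GTTCGANNC (0.843% of all), were in 0 promoters, which allows a share of up to 5.36%. Each motif was counted on its own, also where matches of different motifs overlapped. The median GC content was 56.5% against 60%, and 52.7% over all promoters. The median CpG ratio, observed over expected, was 0.714 against 0.805, and 0.384 over all. All 8 TATAAA matches were in promoters at RT10-only sites, while none of the 11 at RT7-only sites had one, which allows a share of up to 27.3%. A letter match describes the sequence and shows no binding.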

How the data were processed

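CUT&RUN libraries of TBP and IgG were made from 4-OHT- and EtOH-treated RT7 and RT10 cells, with 2 TBP libraries per list. Cutadapt 4.0, Bowtie2 2.4.4, SAMtools 1.15.1, bedtools, deepTools and MACS2 2.2.7.1 with mm10 are named in the submitters' processing notes, without roles or parameters. The deposited lists give, per summit, the authors' −log10 q-value (−log10 scale). The lowest was 1.30, and neither the authors' threshold nor pooling of libraries, nor any use of the yeast spike-in DNA, is given in the sources used here. The depth of the libraries is unknown, which leaves no precision to give from it.

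Summits were matched by distance, and scores were compared within a list. Gene ends, starts and promoter sequences came from RefSeq tables of GRCm38.p6 with 49943 genes and 32851 promoters, without chromosome 18 promoters. A summit was classed by a gene end within 500 bp. The 487 RNA polymerase III genes formed a class of their own. Shares carry exact Clopper-Pearson 95% intervals. No test was run, with 1 list per group. A share of 0 is given with the limit of 3 counts.

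The sites, the 20 gene lists and the motifs were chosen with earlier results of these data known. Named genes were, per line and by EtOH score, the 12 highest sites at protein-coding gene ends, 5 each at other gene ends, inside genes and between genes, 3 at RNA polymerase III genes, 3 on either side of the 1000 bp limit, up to 4 per list, the deleted genes and the densest 1 Mb windows. Further tied, clustered or shown genes, among them Gm35194, Eif2s2, Gm30684, n-TFgaa6, Tsks, B3gnt7, Myo10 and Mical3, were named after their values were seen. Python 3.11.15, NumPy 2.4.6, pandas 2.3.3, SciPy 1.17.1 and matplotlib 3.10.9 were used, and the matching code was tested on simulated lists. Alternatives covered the distances, score minimums, list length and starting list. One site that the rule names is not reported here.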

Additional observations from a re-analysis of the deposited data

How the results depend on the processing

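The number of one-line-only sites depended on the settings. It was 42 for RT7, 191 for RT10 and 233 together as reported. With scores of at least 5 in all 4 lists it was 23, 127 and 150. With member scores of at least 5 it was 9, 41 and 50, and with at least 10 it was 3, 7 and 10. With lists of equal length it was 65, 90 and 155. For RT7 it was 26 with the partner within 100 bp and 73 with no RT10 summit within 250 bp. Over other distances, chromosomes, merging and the starting list the counts stayed within 1.5 times.

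The gene end share of one-line-only sites was 39.5% within 2000 bp and 16% at member scores of at least 5. In sites of all 4 lists it was 50.3% within 250 bp, 63.9% within 1000 bp, 69.3% within 2000 bp and 63.3% at scores of at least 5. In 2 alternatives chosen after seeing the data it was 51.4% (EtOH score under 10) and 44.6% (annotated starts). It was lower for one-line-only sites in each setting. At member scores of at least 5 chromosome 8 held 33.3% of only 9 RT7-only and 22.0% of 41 RT10-only sites. No share of kept sites at that score limit was set beside these. The median RT7-only site was at percentile 17.1 of the 4-OHT list, against 44.8 in the EtOH list. List genes at one-line-only sites numbered 5 within 1000 bp, against 3. Of 64 alternative values, 38 stayed within their spread or within 1.5 times and 26 moved. The cause was not tested.

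No paired analysis was possible because each line and treatment has 1 summit list with no replicate number. With unknown depth and 1 list per group, absence from a list means no called summit and does not show absence of TBP.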
